A study of Mus musculus with 18 samples.

Results

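The p53 pathway was followed in newly made RNA of mouse embryonic stem cells through 10 genes: Trp53, which encodes p53, its regulator Mdm2, and the p53 target genes Cdkn1a, Ccng1, Plk2, Bax, Bbc3, Trp53inp1, Zmat3 and Sesn2. The genes were chosen by symbol as well known members of the pathway, with earlier results of these data known. The count table held all 10 among its 25897 gene symbols. All 10 also passed the filter on low counts that left 14128 genes to test.

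p53 is a transcription factor that binds DNA as a tetramer at paired copies of a decamer. Its amount is set largely at the level of the protein, because Mdm2 marks p53 for degradation, and Mdm2 is itself a p53 target, which closes a feedback loop. Targets of p53 halt the cell cycle, start apoptosis, or adjust RNA processing and metabolism under stress. In embryonic stem cells p53 is abundant and has been linked to the exit from self-renewal. Several of its targets, among them Cdkn1a and Plk2, are also known to answer growth factor signalling. No protein was measured here, so the values speak of nascent transcripts alone.

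The study asked how loss of Med24 alters the transcriptional answer to ERK. Med24 belongs to Mediator, which connects transcription factors with RNA polymerase II. All cells were of the E14tg2a line with a 129SV background, lacked endogenous Med24, and carried a tetracycline-regulated cDNA for FLAG-Med24 and a cRAF-ErT2-T2A-RTTA cassette. cRAF-ErT2 is a kinase that 4-hydroxytamoxifen (4OHT) switches on, which activates ERK. Cells kept with 500 nM doxycycline (labelled WT) made the cDNA and are called rescued; cells kept without it (labelled KO) are called knockout. Medium with serum, LIF and 2 µM of the GSK3 inhibitor Chir99021 was replaced for the last 24 h before treatment by serum and LIF with 250 nM PD173074, an FGF receptor inhibitor, in all groups. They were collected untreated (0 h) or after 2 h or 8 h of 250 nM 4OHT, and RNA was labelled with 5 mM ethynyl uridine over the last 15 min. Each of the 6 groups held 3 libraries, from clones A, B and C. Doxycycline was present in every rescued and absent from every knockout library, so its own effects and those of Med24 cannot be told apart.

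Totals per library ran from 6691177 to 14541145 counts, and the members had between 113 and 4598 counts in each library. Levels are given in CPM, counts scaled to a common library total, after TMM scaling, a correction for differences in library composition. Med24 averaged 548, 1635 and 404 CPM in rescued cells at 0, 2 and 8 h and 38.9, 46.5 and 39.3 CPM in knockout cells. In 3 knockout libraries (2 h clone A, 8 h clones B and C) 13 abundant genes held 34.2% to 43.9% of the counts, against 17.7% to 24.0% in the other 15. These 13 were picked from the same libraries by high level, spread within groups and correlation with Cdk8 within groups. The 6 stem cell markers (Pou5f1, Sox2, Nanog, Esrrb, Zfp42 and Utf1) summed to between 1359 and 2031 CPM with none at 0, and 6 fibroblast markers summed to between 0.807 and 9.43 CPM.

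The promoters of the members are shown because p53 acts through such decamers in DNA. RefSeq's promoter table (GRCm38.p6, 250 bases before to 50 after each start) held 11 entries for 8 members; Zmat3 and Trp53inp1 had none. The p53 decamer (named motif, 10 bases, both strands) was matched in 5 of the 8 members and 5 of the 11 entries (45.5%), against 8.36% of all 32851 promoters. The stretches below run 5′ to 3′ on the strand of the gene with the motif matches in capitals.
Cdkn1a, chr17:29090729-29090978, plus strand, positions -250 to -1 from the upstream start: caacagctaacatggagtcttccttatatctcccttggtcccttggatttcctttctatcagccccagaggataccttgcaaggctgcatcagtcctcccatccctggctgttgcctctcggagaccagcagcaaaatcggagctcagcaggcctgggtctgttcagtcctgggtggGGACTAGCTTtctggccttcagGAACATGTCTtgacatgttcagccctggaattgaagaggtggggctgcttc
Mdm2, chr10:117710759-117711008, minus strand, positions -250 to -1: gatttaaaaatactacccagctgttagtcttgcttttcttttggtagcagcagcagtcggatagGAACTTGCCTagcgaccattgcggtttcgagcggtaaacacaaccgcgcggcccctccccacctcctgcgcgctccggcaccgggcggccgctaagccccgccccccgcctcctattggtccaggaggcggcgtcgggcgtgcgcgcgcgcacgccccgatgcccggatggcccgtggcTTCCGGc
Trp53, chr11:69580259-69580318, plus strand, positions -100 to -41: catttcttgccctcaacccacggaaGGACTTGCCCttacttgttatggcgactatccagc
Ccng1, chr11:40755437-40755496, minus strand, positions -210 to -151: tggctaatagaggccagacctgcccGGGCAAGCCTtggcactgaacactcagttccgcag
Bax, chr7:45467065-45467124, minus strand, positions -226 to -167: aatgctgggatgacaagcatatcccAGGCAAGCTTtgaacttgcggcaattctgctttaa

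The Cdkn1a stretch held 2 decamers, at -73 to -64 and -51 to -42, with 12 bases between them. The bases directly after the second decamer met the same motif except at their first base, and so were not counted as a match. The stretch precedes the upstream of the listed Cdkn1a starts, which lie 2790 bases apart, and the window of the downstream start held no match. In Mdm2 the decamer stood at -186 to -177, and a match to the ETS motif (CCGGAA or its complement) stood at -7 to -2. ETS factors are classical targets of ERK phosphorylation, and this motif occurred in 14.9% of all promoters. Single decamers stood at -75 to -66 in Trp53, -185 to -176 in Ccng1 and -201 to -192 in Bax. Bbc3 held an EGR match (GCGNGGGCG, in 5.55% of promoters) in 2 of its 3 entries. The bases after the starts of those 2 entries were not found in a GENCODE transcript of Bbc3. The entry whose bases were found there held no EGR match. No match to the AP-1 motif (TGANTCA, in 7.81% of promoters) or the CArG box (named motif, in 1.63%) was found in any member entry. Sesn2 and Plk2 held none of the 5 motifs. A match describes letters in the window and is no evidence of binding.

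**Figure D1:**
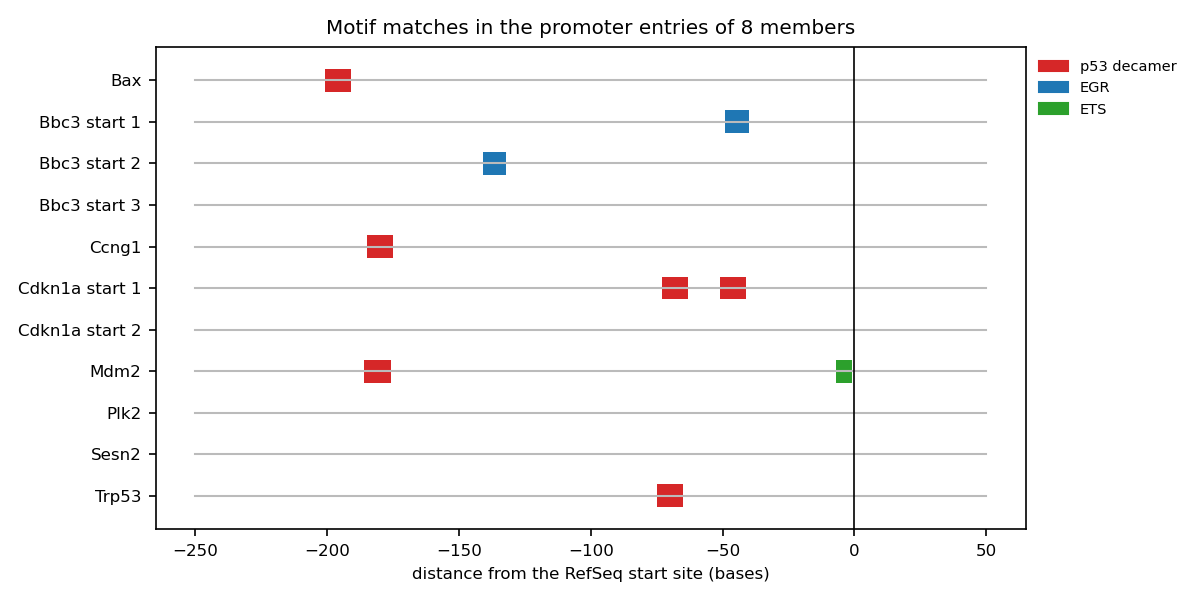
Motif matches in the 11 RefSeq promoter entries of 8 members, by distance in bases from the start site; each grey line is an entry of 250 bases before to 50 after the start. Matches to the p53 decamer (red) lie in 5 entries, Cdkn1a having 2, with EGR (blue) matches in Bbc3 and an ETS (green) match in Mdm2.

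Trp53 itself fell at 2 h, rose above its starting level at 8 h, and was higher in knockout than in rescued cells at each time. In rescued clones A, B and C it stood at 194, 175 and 201 CPM at 0 h, at 125, 149 and 152 CPM at 2 h and at 246, 247 and 236 CPM at 8 h. Knockout clones A, B and C had 229, 236 and 236 CPM at 0 h, 218, 192 and 193 CPM at 2 h and 328, 310.4 and 326 CPM at 8 h. Both cell states thus had their lowest libraries at 2 h and their highest at 8 h, with no overlap between the times. Read from the highest group mean, the order was knockout 8 h, rescued 8 h, knockout 0 h, knockout 2 h, rescued 0 h and rescued 2 h. In that order rescued 8 h and knockout 0 h overlapped, as did knockout 2 h and rescued 0 h. The gene lies on GRCm38 chromosome 11 (69580359 to 69591873, plus strand).

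Changes were tested with edgeR's quasi-likelihood test, with Benjamini-Hochberg adjustment over all 14128 genes and a threshold of 0.05, and are log2 fold changes ± SE with n = 3 per group. Trp53 fell by 0.42 ± 0.065 at 2 h in rescued cells (adjusted p = 1.33e-06) and by 0.22 ± 0.063 in knockout cells (adjusted p = 0.00288). At 8 h the changes against 0 h were 0.35 ± 0.063 in rescued (adjusted p = 1.53e-05) and 0.46 ± 0.062 in knockout cells (adjusted p = 2.2e-07). Knockout cells exceeded rescued cells by 0.30 ± 0.063 at 0 h (adjusted p = 0.00146), by 0.50 ± 0.065 at 2 h (adjusted p = 4.05e-07) and by 0.40 ± 0.062 at 8 h (adjusted p = 5.92e-06). All 3 knockout libraries stood above all 3 rescued libraries at each time. When libraries were scaled by size alone, without TMM, the differences of Trp53 between the states were 0.33, 0.40 and 0.14 (adjusted p = 0.171, 0.0256 and 0.383), while the median of all genes shifted to 0.042, -0.091 and -0.26. That scaling also put the 8 h changes at 0.28 in rescued and 0.093 in knockout cells (adjusted p = 0.0607 and 0.538). The response itself did not pass the test for a difference between the states, at 0.20 ± 0.091 at 2 h (adjusted p = 0.149) and 0.11 ± 0.089 at 8 h (adjusted p = 0.454). In bulk RNA, fewer cells making a transcript and less of it per cell cannot be told apart.

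**Figure D2:**
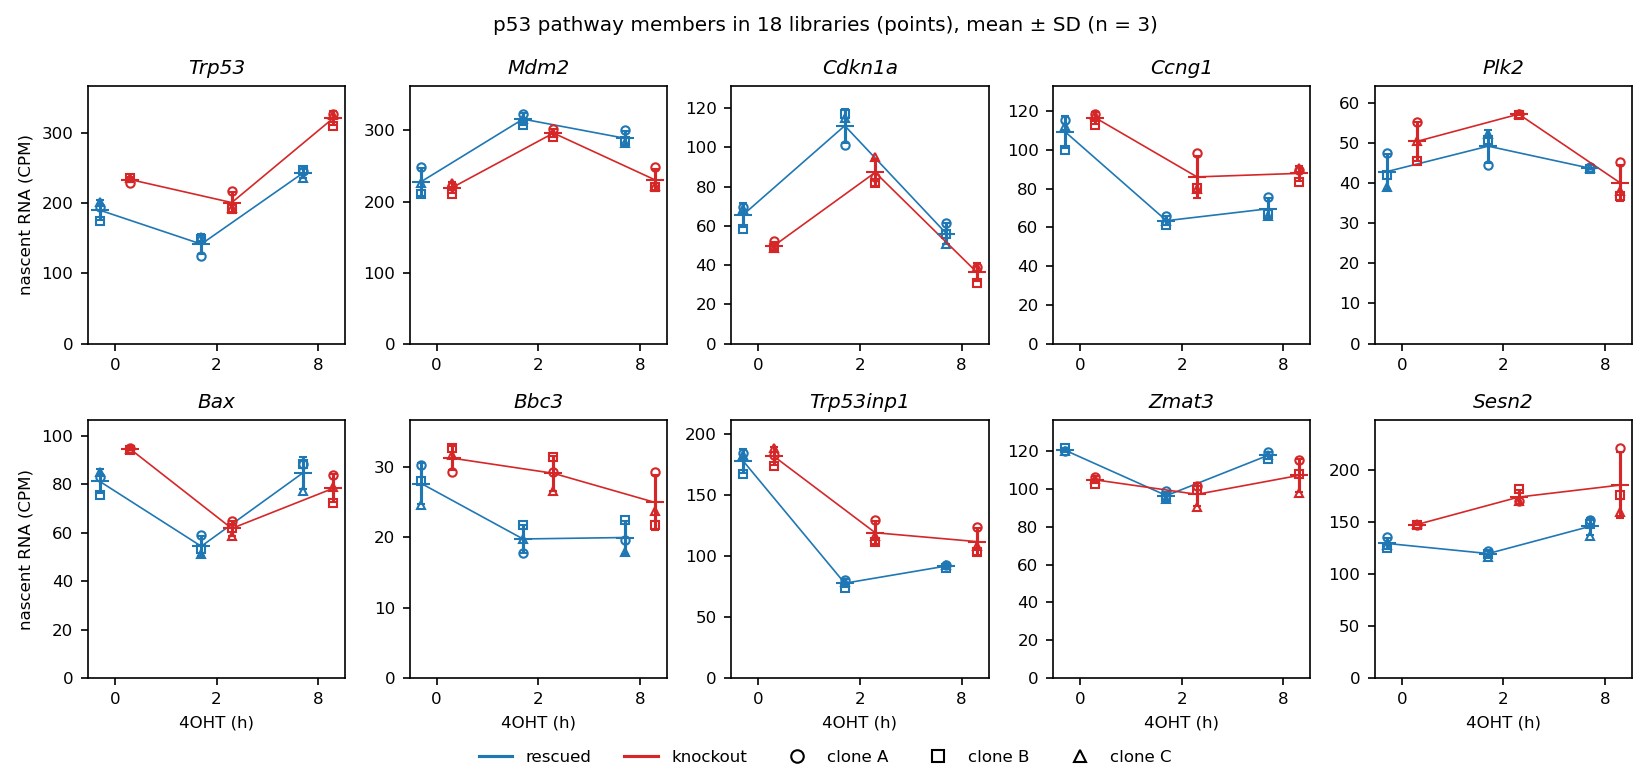
Nascent RNA of the 10 members in CPM (y axis, from 0) against hours of 4OHT, for rescued (blue) and knockout (red) cells; points are libraries by clone, and bars the mean ± SD of 3. Knockout libraries lie above rescued libraries for Trp53 and below them for Cdkn1a at 0, 2 and 8 h, and Trp53inp1 falls less far in knockout cells at 2 h.

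Mdm2, the ubiquitin ligase that restrains p53, rose at 2 h in both cell states. It stood at 249, 209.9 and 225 CPM in rescued clones A, B and C at 0 h, at 324, 308 and 317 CPM at 2 h and at 300.5, 284 and 282 CPM at 8 h. In knockout clones it stood at 222, 210.3 and 226 CPM at 0 h, at 302, 291 and 296 CPM at 2 h and at 249, 221 and 221 CPM at 8 h. The 2 h libraries were above the 0 h libraries in both states, whereas at 8 h the knockout libraries again overlapped those of 0 h. The 2 h change was 0.47 ± 0.059 in rescued (adjusted p = 3.08e-08, edgeR) and 0.43 ± 0.059 in knockout cells (adjusted p = 1.39e-07). At 8 h it was 0.34 ± 0.058 in rescued cells (adjusted p = 7.65e-06) and 0.076 ± 0.060 in knockout cells (adjusted p = 0.283). Mdm2 was lower in knockout cells at 8 h, by a log2 fold change of -0.32 ± 0.059 (adjusted p = 6.95e-05), and its 8 h response differed between the states by -0.27 ± 0.084 (adjusted p = 0.027). Without the 3 libraries rich in the 13 abundant genes, which leaves 1 library in the knockout 8 h group that is assumed to vary like the others, Mdm2 rose at 8 h in knockout cells (0.20, adjusted p = 0.0145) and the difference in response was -0.15 (adjusted p = 0.228). That difference also missed the threshold when any of 6 single libraries was left out (rescued 0 h B or C, rescued 8 h A, knockout 0 h A or C, knockout 8 h B), and when the fit held only the groups compared (-0.26, adjusted p = 0.055). Scaled by library size alone, the 2 h change in knockout cells was 0.15 and the 8 h change in rescued cells 0.27 (adjusted p = 0.339 and 0.0849).

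Among the targets that act on the cell cycle, Cdkn1a, which encodes the cyclin-dependent kinase inhibitor p21, moved opposite to Trp53. It stood at 69.6, 58.6 and 68.8 CPM in rescued clones A, B and C at 0 h, at 101, 117 and 115 CPM at 2 h and at 61.6, 55.8 and 50.8 CPM at 8 h. In knockout clones it stood at 52.2, 48.7 and 48.5 CPM at 0 h, at 84.7, 81.8 and 95.2 CPM at 2 h and at 39.2, 31.0 and 39.0 CPM at 8 h. Every knockout library was below every rescued library of its time, and in both states the 2 h libraries were the highest. From the highest mean, the order was rescued 2 h, knockout 2 h, rescued 0 h, rescued 8 h, knockout 0 h and knockout 8 h. Only the neighbours rescued 0 h with rescued 8 h, and rescued 8 h with knockout 0 h, overlapped.

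Cdkn1a rose by 0.76 ± 0.079 at 2 h in rescued cells (adjusted p = 8.22e-10, edgeR) and by 0.81 ± 0.082 in knockout cells (adjusted p = 4.89e-10), and the difference in response was 0.057 ± 0.11 (adjusted p = 0.808). At 8 h it was below its 0 h level in knockout cells (-0.44 ± 0.095, adjusted p = 0.000202). The 8 h change in rescued cells was -0.22 ± 0.083 (adjusted p = 0.0228), with overlapping libraries, and it missed the threshold without rescued 0 h clone A or C or rescued 8 h clone C (adjusted p of 0.0867 to 0.125). Knockout against rescued cells gave -0.40 ± 0.085 at 0 h (adjusted p = 0.00131), -0.35 ± 0.076 at 2 h (adjusted p = 0.000852) and -0.63 ± 0.092 at 8 h (adjusted p = 2.95e-06). Scaled by library size alone, the 0 h difference was -0.37 (adjusted p = 0.168) and the 8 h change in rescued cells -0.30 (adjusted p = 0.0729). The gene lies on chromosome 17 (29090976 to 29100727, plus strand) and shares 273 exonic bases with AC167363.2 on the opposite strand, and whether counting used strand is not given in the sources used here.

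Ccng1, which encodes cyclin G1, fell with 4OHT, and fell less in knockout cells at 2 h. Rescued clones A, B and C had 116, 100.1 and 113 CPM at 0 h, 65.7, 61.3 and 63.3 CPM at 2 h and 75.8, 66.9 and 66.0 CPM at 8 h. Knockout clones had 119, 113 and 118 CPM at 0 h, 98.5, 80.1 and 79.5 CPM at 2 h and 89.8, 83.2 and 90.6 CPM at 8 h. The states overlapped at 0 h, and at 2 h and 8 h every knockout library was above every rescued one. At 2 h Ccng1 fell by 0.79 ± 0.072 in rescued (adjusted p = 5.09e-11, edgeR) and by 0.45 ± 0.069 in knockout cells (adjusted p = 1.49e-06), a difference in response of 0.34 ± 0.10 (adjusted p = 0.0203). That difference missed the threshold without rescued 0 h clone A, rescued 2 h clone B or knockout 2 h clone A (adjusted p of 0.055 to 0.0842). The 8 h changes were -0.64 ± 0.070 in rescued and -0.41 ± 0.070 in knockout cells (adjusted p = 2.15e-09 and 1.21e-05), and knockout exceeded rescued cells by 0.43 ± 0.074 at 2 h and 0.33 ± 0.073 at 8 h (adjusted p = 3.73e-05 and 0.000803). The difference in the 8 h response was 0.24 ± 0.099 and did not pass (adjusted p = 0.101). It passed with the clones as a replicate block (0.24, adjusted p = 0.0492). It also passed without rescued 0 h clone B or rescued 8 h clone A (adjusted p = 0.04 and 0.0407). Scaled by library size alone, knockout exceeded rescued cells by 0.33 at 2 h and 0.074 at 8 h (adjusted p = 0.0839 and 0.67), and the difference in the 2 h response was 0.21 (adjusted p = 0.666).

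Plk2, a polo-like kinase first described as serum-inducible, moved little. Its group means ± SD were 42.8 ± 4.3, 49.1 ± 4.1 and 43.7 ± 0.17 CPM in rescued cells at 0, 2 and 8 h and 50.3 ± 4.9, 57.1 ± 0.18 and 40.0 ± 4.6 CPM in knockout cells. The 2 h change was 0.20 ± 0.085 in rescued cells, where the libraries overlapped, and 0.19 ± 0.080 in knockout cells (adjusted p = 0.0363 and 0.0435, edgeR), and scaling by library size alone gave 0.042 and reversed the knockout value to -0.10. Each call was lost without single libraries: rescued 0 h B or C or rescued 2 h B or C for the former, and knockout 0 h B or C or any knockout 2 h library for the latter. At 8 h Plk2 fell by 0.31 ± 0.086 in knockout cells (adjusted p = 0.00319). The change was -0.14 without the 3 libraries rich in abundant genes, which leaves clone A as the only knockout 8 h library. Knockout against rescued cells gave 0.23 ± 0.084 at 0 h and 0.21 ± 0.081 at 2 h, neither called (adjusted p = 0.0553 and 0.0534, edgeR). At 2 h Plk2 was called higher with the replicate block (0.22, adjusted p = 0.0482). RLE size factors, no filter, only the groups compared, or leaving out the 13 abundant genes gave that call too (adjusted p of 0.0239 to 0.0404). Without the filter or with only the groups compared, Plk2 was also called higher at 0 h. The difference in the 8 h response was -0.34 ± 0.12 (adjusted p = 0.0525). It was called lower with the block (-0.34, adjusted p = 0.047).

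The largest fall among the members belonged to an apoptosis gene. Trp53inp1, a stress protein that promotes p53 phosphorylation and cell death, stood at 184, 167 and 183 CPM in rescued clones A, B and C at 0 h, at 80.2, 73.7 and 79.0 CPM at 2 h and at 92.4, 90.1 and 92.8 CPM at 8 h. Knockout clones had 183, 174 and 189 CPM at 0 h, 129, 112 and 116 CPM at 2 h and 124, 103 and 108 CPM at 8 h. The states overlapped before 4OHT and separated fully after it, with every knockout library above every rescued one. The fall at 2 h was 2.29-fold in rescued cells (log2 fold change -1.20 ± 0.065, adjusted p = 1.97e-16, edgeR) and 1.53-fold in knockout cells (-0.61 ± 0.062, adjusted p = 4.75e-10). The difference in the 2 h response, 0.58 ± 0.090 (adjusted p = 2e-05), kept its call with each single library left out. At 8 h the changes were -0.96 ± 0.063 and -0.69 ± 0.064 (adjusted p = 2.44e-14 and 9.54e-11), and the difference in response was 0.27 ± 0.089 (adjusted p = 0.0395). The 8 h difference missed the threshold without any of 8 single libraries (knockout 0 h A or B, knockout 8 h A, rescued 0 h A or C, rescued 8 h A, B or C), at adjusted p of 0.0534 to 0.168, and scaling by library size alone reversed it to -0.022. That scaling gave 0.45 for the 2 h difference in response (adjusted p = 0.21) and 0.042 for knockout against rescued cells at 8 h (adjusted p = 0.824). The gene lies on chromosome 4 (11156431 to 11174379, plus strand).

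Bax, which encodes a pore-forming protein of the mitochondrial outer membrane, fell at 2 h in both states and had recovered at 8 h in rescued cells. It stood at 83.0, 75.7 and 85.1 CPM in rescued clones A, B and C at 0 h, at 59.0, 53.2 and 51.2 CPM at 2 h and at 88.6, 88.5 and 77.2 CPM at 8 h. Knockout clones had 95.1, 94.4 and 94.5 CPM at 0 h, 64.9, 61.9 and 58.6 CPM at 2 h and 83.8, 72.4 and 79.0 CPM at 8 h. In each state the 2 h libraries were below all those of the other times, and the states were apart at 0 h alone. The 2 h change was -0.58 ± 0.070 in rescued and -0.62 ± 0.067 in knockout cells (adjusted p = 1.34e-08 and 1.93e-09, edgeR). At 8 h it was 0.062 ± 0.065 in rescued (adjusted p = 0.417) and -0.26 ± 0.067 in knockout cells (adjusted p = 0.00118), a difference in response of -0.33 ± 0.093 (adjusted p = 0.0146).

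Both 8 h values of Bax depended on libraries. Leaving out the 3 libraries rich in abundant genes keeps clone A as the only knockout 8 h library. The knockout change was then -0.16 and the difference in response -0.23. That difference missed the threshold without rescued 0 h B, rescued 8 h A or knockout 8 h B. At 0 h Bax was higher in knockout cells by 0.22 ± 0.065 (adjusted p = 0.0205), which missed the threshold without rescued 0 h B or any knockout 0 h library (adjusted p of 0.0608 to 0.132) or with scaling by library size alone (0.25, adjusted p = 0.395). At 2 h the excess in knockout cells was 0.18 ± 0.072 and was not called (adjusted p = 0.0673, edgeR). It was called with the replicate block (0.18, adjusted p = 0.0467). It was also called with RLE size factors, without the 13 abundant genes or without rescued 2 h A (adjusted p of 0.0265 to 0.0497). Bax (chromosome 7, 45461697 to 45466898, minus strand) shares 192 exonic bases with Gm45808, which had 0.611 to 3.23 CPM in the table.

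Bbc3, which encodes the BH3-only protein Puma, had group means ± SD of 27.6 ± 2.9, 19.7 ± 2.0 and 20.0 ± 2.3 CPM in rescued cells at 0, 2 and 8 h. In knockout cells they were 31.2 ± 1.8, 29.1 ± 2.5 and 24.9 ± 3.9 CPM. Rescued cells showed a fall at both times, by -0.48 ± 0.11 at 2 h and -0.47 ± 0.11 at 8 h (adjusted p = 0.000385 and 0.000364, edgeR). In knockout cells the 2 h change was -0.11 ± 0.10 (adjusted p = 0.361), and the difference in the 2 h response, 0.37 ± 0.15, did not pass the test (adjusted p = 0.106). Knockout cells exceeded rescued cells by 0.56 ± 0.11 at 2 h (adjusted p = 0.000275), with 26.5 to 31.4 CPM against 17.7 to 21.8 CPM. At 8 h the knockout fall of -0.29 ± 0.11 (adjusted p = 0.0202) and the excess over rescued cells of 0.36 ± 0.11 (adjusted p = 0.0143) both came with overlapping libraries. The former missed the threshold without knockout 0 h B or knockout 8 h B or C. The latter did so without rescued 8 h A or C or knockout 8 h A (adjusted p of 0.056 to 0.278). Without the 3 libraries rich in abundant genes, which leaves clone A as the only knockout 8 h library, the knockout change was -0.078. Scaled by library size alone, the excess in knockout cells was 0.47 at 2 h and 0.11 at 8 h (adjusted p = 0.0543 and 0.639).

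The remaining members act on RNA and metabolism. Zmat3, a zinc finger RNA-binding protein, stayed between 90.4 and 122 CPM in all libraries. It fell by 0.32 ± 0.056 at 2 h in rescued cells (adjusted p = 8.66e-06, edgeR), from 121 ± 1.1 to 96.5 ± 2.1 CPM, and the change in knockout cells was -0.11 ± 0.056 (adjusted p = 0.0785). The difference in the 2 h response, 0.21 ± 0.079, did not pass the test (adjusted p = 0.0791). It passed with RLE size factors, with only the groups compared, without the 13 abundant genes or without knockout 2 h clone C (adjusted p of 0.0346 to 0.0497). Scaled by library size alone, the 2 h change in knockout cells was -0.40 (adjusted p = 0.00783), with the median of all genes at -0.33. At 0 h Zmat3 was lower in knockout cells, at 105 ± 1.9 CPM, by a log2 fold change of -0.20 ± 0.055 (adjusted p = 0.0114), or -0.17 with scaling by library size alone (adjusted p = 0.633).

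Sesn2, an inhibitor of the growth kinase complex mTORC1, was the only member that rose at 2 h in knockout cells without being called in rescued cells, and the responses differed. Rescued clones A, B and C had 136, 125 and 128 CPM at 0 h, 123, 119.9 and 117 CPM at 2 h and 152, 148 and 137 CPM at 8 h. Knockout clones had 148, 147 and 149 CPM at 0 h, 170.1, 182 and 170.3 CPM at 2 h and 222, 176 and 159.7 CPM at 8 h. Knockout libraries were above rescued libraries at each time, while at 8 h knockout clone A stood well above clones B and C. Knockout cells exceeded rescued cells by 0.54 ± 0.074 at 2 h (adjusted p = 9.27e-07, edgeR) and 0.36 ± 0.073 at 8 h (adjusted p = 0.000234), and the 0 h value of 0.19 ± 0.074 did not pass (adjusted p = 0.0797). That 0 h value passed without the filter on low counts and with only the groups compared (0.19 in each, adjusted p = 0.0196 and 0.0105). The 2 h change was -0.11 ± 0.076 in rescued (adjusted p = 0.183) and 0.24 ± 0.072 in knockout cells (adjusted p = 0.00488), a difference in response of 0.35 ± 0.10 (adjusted p = 0.0222). That difference missed the threshold without rescued 0 h A, rescued 2 h C or knockout 2 h B (adjusted p of 0.0593 to 0.0629).

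At 8 h Sesn2 changed by 0.17 ± 0.074 in rescued (adjusted p = 0.0417, edgeR) and 0.35 ± 0.073 in knockout cells (adjusted p = 0.000159). Scaling by library size alone reversed its rise in knockout cells at both times, to -0.045 at 2 h and -0.00037 at 8 h, where the median of all genes moved to -0.33 and -0.38. That scaling gave 0.10 at 8 h in rescued cells, 0.12 for knockout against rescued cells at 8 h and 0.23 for the difference in the 2 h response (adjusted p = 0.6, 0.522 and 0.685). The rescued value missed the threshold without rescued 0 h B or C or rescued 8 h A or B (adjusted p of 0.108 to 0.186). Within groups Sesn2 moved against Cdk8, the gene by whose correlation the 13 abundant genes were picked. Over the 18 libraries' deviations from their group means r was -0.83, a description with no test. The other members had r between -0.45 and 0.27. Knockout 8 h clones B and C are both among the libraries rich in abundant genes; the part of this in the Sesn2 values was not tested. Leaving out the 3 such libraries keeps clone A, the highest for Sesn2, as the only knockout 8 h library. The difference in the 8 h response of Sesn2 was then 0.42, against 0.17 (adjusted p = 0.277) with them.

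**Figure D3:**
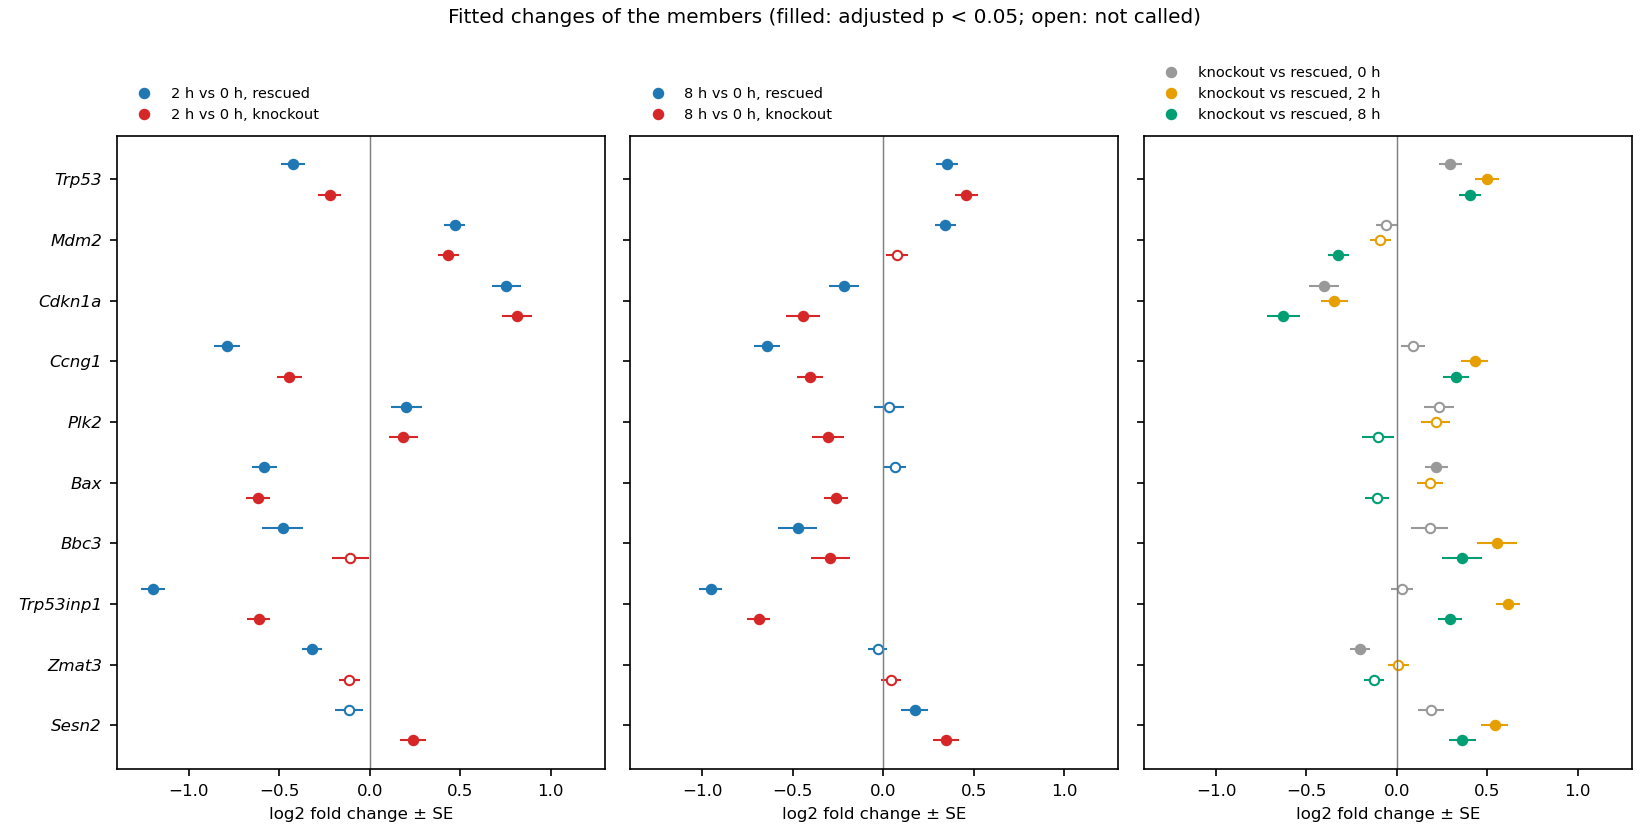
Fitted log2 fold changes ± SE (x axis) of the 10 members at 2 h and 8 h against 0 h in rescued and knockout cells, and of knockout against rescued cells at each time; filled points passed an adjusted p of 0.05. At 2 h Trp53inp1 changed by -1.20 in rescued and -0.61 in knockout cells, and in the right panel the 3 Trp53 points lie above 0 and the 3 Cdkn1a points below it.

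Counted together, the members split in direction. At 2 h in rescued cells 3 members rose and 6 fell, where 32.4% and 33.8% of all tested genes did so, and at 8 h 3 rose and 4 fell (background 30.7% and 31.3%). At 2 h in knockout cells 4 rose and 4 fell (background 31.5% and 35.2%), and at 8 h 2 rose and 6 fell (background 28.2% and 29.6%). The members' median log2 fold change was -0.37 at 2 h in rescued cells and -0.11 in knockout cells, and the medians of all tested genes were -0.019 and -0.049. Comparisons with the same 0 h libraries share those controls. Without the 3 libraries rich in abundant genes, clone A is the only knockout 8 h library. The 8 h changes of Mdm2, Bax, Bbc3 and Plk2 in knockout cells were then 0.20, -0.16, -0.078 and -0.14. With scaling by library size alone 0 members rose and 7 fell at 8 h in knockout cells. That scaling gave 0 higher and 3 lower at 8 h in rescued cells.

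Knockout against rescued cells at 0 h gave 2 members higher and 2 lower (background 6.81% and 9.64%). At 2 h 5 were higher (Trp53, Ccng1, Bbc3, Sesn2 and Trp53inp1) and 1 was lower, Cdkn1a, where 10.8% and 12.9% of all genes were called. At 8 h the same 5 were higher and Cdkn1a and Mdm2 were lower (background 14.5% and 17.1%). With scaling by library size alone all of those higher calls at 8 h were lost (0 higher and 4 lower), no member was called at 0 h, and 3 were higher and 1 lower at 2 h. That scaling shifted the median of all genes to 0.042, -0.091 and -0.26 at 0, 2 and 8 h. With TMM the members' medians at 0, 2 and 8 h were 0.13, 0.32 and 0.095, against 0.0078, 0.00068 and -0.0030 over all genes. The response differed between the states for 3 members at 2 h, all towards higher values in knockout cells (background 6.6% in each direction). In the lower direction edgeR and DESeq2 each called 0 members, and 0 had an unadjusted p under the threshold. At 8 h the response was called higher for 1 member (background 7.88%) and lower for 2 (background 8.88%). With scaling by library size alone 0 members were called at 2 h, and 0 higher and 3 lower at 8 h. Leaving out the 3 libraries rich in abundant genes keeps clone A as the only knockout 8 h library. The 8 h differences in response of Mdm2, Bax and Sesn2 were then -0.15, -0.23 and 0.42. With the clones as a replicate block the 8 h count was 5 rather than 3.

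Primitive endoderm is the lineage that ERK promotes in the early embryo. The sum of its markers was higher in knockout cells at each time and fell with 4OHT in both states. The 6 markers (Gata4, Gata6, Sox17, Sox7, Pdgfra and Dab2) summed to 55.7 to 68.4 CPM in knockout and 31.5 to 31.8 CPM in rescued libraries at 0 h, to 33.7 to 44.4 against 16.0 to 26.1 CPM at 2 h, and to 23.0 to 29.3 against 8.82 to 9.74 CPM at 8 h. None of the 6 was at 0 in a group. Dab2 alone held 17.5 to 22.0 CPM in rescued and 28.2 to 35.6 CPM in knockout libraries at 0 h. At 2 h Dab2 held 2.77 to 4.27 CPM in rescued and 7.09 to 11.4 CPM in knockout libraries. The other markers did not all fall by 2 h. Pdgfra rose in rescued cells, from at most 1.81 CPM to between 3.11 and 4.25 CPM, and overlapped in knockout cells. Gata4, Sox17 and Sox7 overlapped between 0 h and 2 h in both states. Gata6 fell in rescued cells and overlapped in knockout cells. Between the states, too, not every marker followed the sum. Sox17 at 2 h had 0.880 to 12.7 CPM in rescued and 3.83 to 4.96 CPM in knockout libraries. The states also overlapped for Sox7 at 0 h and 8 h and for Gata6 at 8 h. The stem cell markers also moved with 4OHT and between the states. Their sums were 1995 to 2031 CPM in rescued and 1766 to 1795 CPM in knockout libraries at 0 h, 1359 to 1389 against 1527 to 1672 CPM at 2 h, and 1493 to 1577 against 1601 to 1795 CPM at 8 h. Nanog went from 326 to 337 CPM at 0 h to 67.9 to 87.0 CPM at 2 h and 19.6 to 19.9 CPM at 8 h in rescued cells, and from 344 to 368 CPM to 125 to 163 and 66.9 to 77.8 CPM in knockout cells. The list was split in direction. By 8 h in rescued cells Esrrb also fell, from 541 to 568 CPM to 217 to 234 CPM. Pou5f1 rose from 169 to 180 CPM to 278 to 286 CPM, and Sox2 from 253 to 317 CPM to 332 to 362 CPM. Utf1 rose from 21.1 to 31.2 CPM to 72.1 to 83.5 CPM, and Zfp42 overlapped. In knockout cells Pou5f1, Sox2, Utf1 and Zfp42 were higher at 8 h than at 0 h, and Esrrb was lower. The part of either marker list in the changes and differences of the members was not tested.

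A further 38 p53 targets were examined, of which 36 could be tested (Trp53cor1 was not matched and Spata18 had at most 1 count). At 2 h 10 of the 36 rose and 20 fell in rescued cells (32.4% and 33.8% of all genes), and 9 rose and 15 fell in knockout cells (31.5% and 35.2% of all genes). Their median log2 fold changes were -0.27 and -0.15, against -0.019 and -0.049 over all genes. The highest was Trp53i11, a p53-inducible membrane protein gene, which rose from 22.7 ± 1.8 to 102 ± 3.2 CPM in rescued cells (log2 fold change 2.17 ± 0.084) and from 15.0 ± 0.77 to 64.6 ± 4.6 CPM in knockout cells (2.11 ± 0.092). Ei24, an apoptosis and autophagy gene, fell from 100.4 ± 3.4 to 33.9 ± 1.5 CPM (-1.56 ± 0.075) in rescued cells and from 134 ± 4.2 to 50.1 ± 2.3 CPM (-1.42 ± 0.069) in knockout cells. Pidd1, a death-domain gene, fell in both states at 2 h, by -1.12 ± 0.12 and -1.03 ± 0.12. Perp, which encodes a desmosomal protein with a part in apoptosis, rose at 2 h by 1.82 ± 0.14 in rescued and 0.53 ± 0.17 in knockout cells, and Plk3, a polo-like kinase gene, by 1.47 ± 0.092 and 1.81 ± 0.10.

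At 8 h 9 of the 36 further targets rose and 14 fell in rescued cells (30.7% and 31.3% of all genes), and 10 rose and 14 fell in knockout cells (28.2% and 29.6% of all genes). The list medians were -0.13 and -0.14. Pmaip1, which encodes the BH3-only protein Noxa, changed by 3.01 ± 0.41 in rescued and 2.59 ± 0.38 in knockout cells. Its levels in clones A, B and C went from 2.25, 5.57 and 4.08 to 17.7, 41.2 and 40.6 CPM in rescued cells, and from 2.41, 6.46 and 7.54 to 21.8, 40.1 and 41.9 CPM in knockout cells. Clone A was the lowest for Pmaip1 in all 6 groups. Perp rose by 2.34 ± 0.13 in rescued and 1.87 ± 0.15 in knockout cells, and Plk3 by 2.23 ± 0.087 and 2.12 ± 0.099. These genes fell in both states: Btg2, an antiproliferative gene (-1.45 ± 0.12 in rescued and -1.13 ± 0.12 in knockout cells), Sesn1 (-1.10 ± 0.087 and -0.97 ± 0.092) and Pidd1 (-0.78 ± 0.12 and -1.04 ± 0.12).

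Between the states 2 of the 36 further targets were higher and 4 lower in knockout cells at 0 h (6.81% and 9.64% of all genes), 6 and 5 at 2 h (10.8% and 12.9%), and 5 and 7 at 8 h (14.5% and 17.1%). The list medians were 0.023, 0.063 and 0.026. Ei24 was higher at each time, by 0.42 ± 0.064, 0.56 ± 0.082 and 0.60 ± 0.073. Phlda3, a p53-induced repressor of Akt, was higher at 0 h (0.28 ± 0.080) and 2 h (0.58 ± 0.096). Trp53i11 was lower at each time (-0.60 ± 0.11, -0.66 ± 0.072 and -0.45 ± 0.12), as was Plk3 (-0.60 ± 0.11, -0.26 ± 0.081 and -0.72 ± 0.076). Perp stood at 39.4 ± 4.0 CPM in rescued and 13.5 ± 2.8 CPM in knockout cells at 2 h (-1.57 ± 0.14), and its 2 h response differed by -1.29 ± 0.23 (adjusted p = 0.00011, edgeR). At 8 h Perp (-0.75 ± 0.11) and Gadd45a (-0.83 ± 0.067), a growth arrest and DNA damage gene, were lower and Btg2 was higher (0.36 ± 0.14, adjusted p = 0.0492, with overlapping libraries). Gadd45a rose from 32.7 ± 1.8 to 113 ± 2.1 CPM in rescued cells and from 28.2 ± 2.7 to 63.8 ± 2.0 CPM in knockout cells by 8 h, a difference in response of -0.62 ± 0.11 (adjusted p = 0.000116). In all, the response of 2 further targets was called higher and 1 lower in knockout cells at 2 h (Polk and Ascc3, then Perp), where 6.6% of all genes were called in each direction, and 2 higher and 2 lower at 8 h (Ascc3 and Tigar, then Orai3 and Gadd45a), where 7.88% and 8.88% were.

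**Figure D4:**
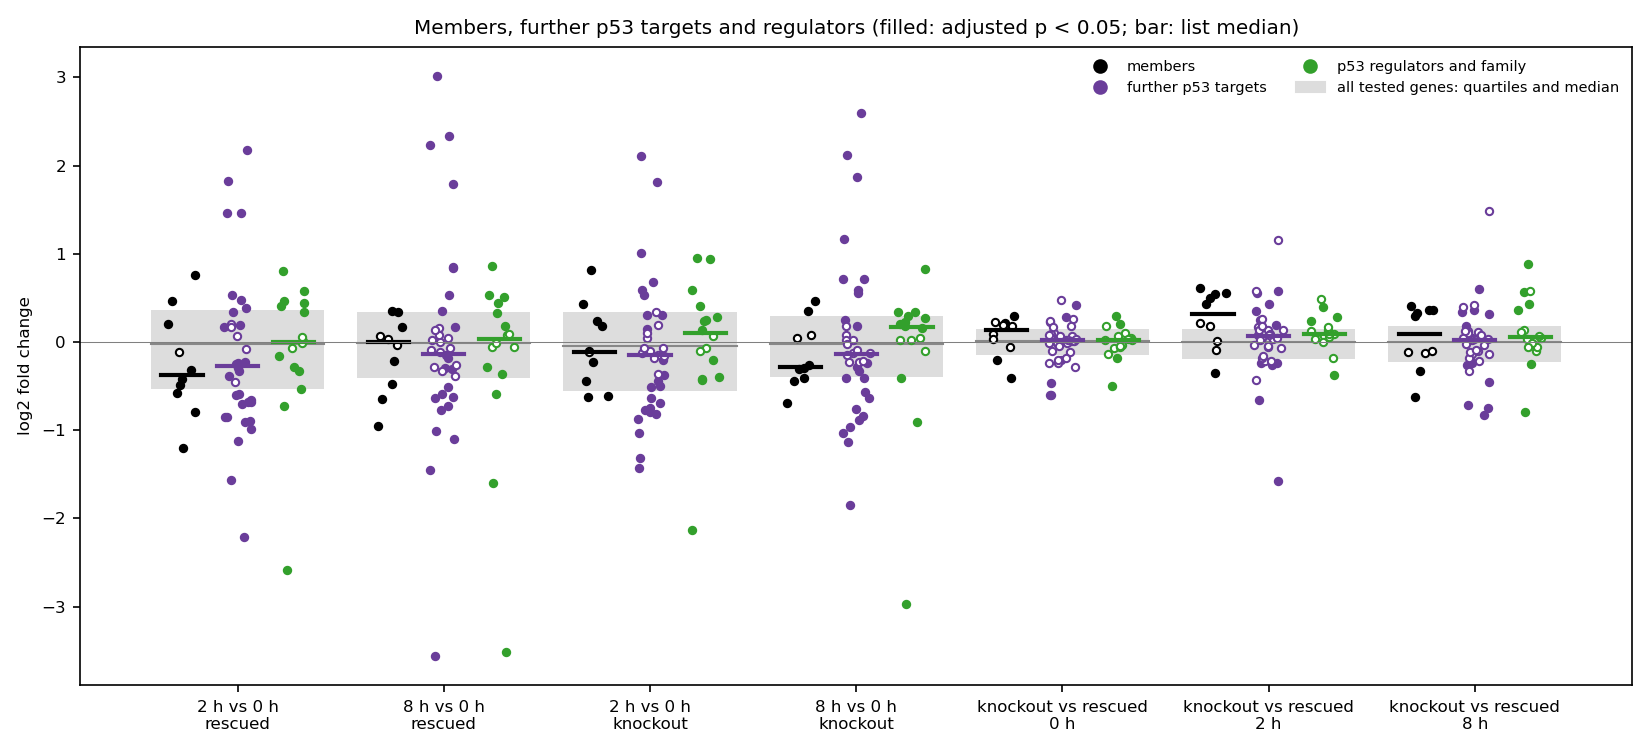
Log2 fold changes (y axis) of the 10 members (black), 36 further p53 targets (purple) and 16 p53 regulators and family genes (green) in 7 comparisons; filled points passed an adjusted p of 0.05, coloured bars are list medians, and grey boxes the quartiles and median of all 14128 genes. The further targets lie on both sides of 0 after 4OHT, with 10 higher and 20 lower at 2 h in rescued cells, and the members' median of knockout against rescued cells is highest at 2 h (0.32).

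Of 17 regulators and relatives of p53, 16 were tested (Trp63 had at most 11 counts in a library). At 2 h 6 of the 16 rose and 6 fell in rescued cells (32.4% and 33.8% of all genes), and 8 rose and 5 fell in knockout cells (31.5% and 35.2%). At 8 h the counts were 6 and 5 in rescued cells (30.7% and 31.3% of all genes) and 9 and 3 in knockout cells (28.2% and 29.6%). Cdkn2a, whose product Arf blocks Mdm2, rose at 2 h from 18.1 ± 1.3 to 31.5 ± 0.85 CPM in rescued (0.80 ± 0.10) and from 17.3 ± 1.8 to 33.1 ± 3.8 CPM in knockout cells (0.95 ± 0.10), and at 8 h by 0.86 ± 0.099 and 0.83 ± 0.10. The table does not separate Arf from Ink4a, the other product of that locus. Mdm4, a partner of Mdm2, fell by 0.73 ± 0.060 at 2 h and by 0.59 ± 0.059 at 8 h in rescued cells, and by 0.40 ± 0.060 at each time in knockout cells. The checkpoint kinase genes Atr and Chek2 fell as well: Atr by 0.53 ± 0.069 at 2 h in rescued and by 0.43 ± 0.068 in knockout cells, and Chek2 by 0.33 ± 0.073 and 0.42 ± 0.071. At 8 h Chek2 fell by 1.60 ± 0.080 in rescued and 0.91 ± 0.076 in knockout cells, while Atr stood at -0.056 ± 0.065 in rescued cells, which did not pass, and rose by 0.27 ± 0.065 in knockout cells. At that time Kat5, a p53 acetyltransferase gene, rose by 0.53 ± 0.074 in rescued and 0.34 ± 0.079 in knockout cells, and Rpl5 by 0.44 ± 0.052 and 0.34 ± 0.052.

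Between the states the 16 regulators gave 2 higher and 2 lower at 0 h (6.81% and 9.64% of all genes), 3 and 1 at 2 h (10.8% and 12.9%), and 4 and 2 at 8 h (14.5% and 17.1%). Hipk2, a kinase that phosphorylates p53, was lower in knockout cells at each time, by -0.50 ± 0.062, -0.37 ± 0.058 and -0.79 ± 0.063. Sirt1, a p53 deacetylase gene, was higher by 0.39 ± 0.048 at 2 h and 0.56 ± 0.052 at 8 h, and its response differed at both times (0.37 ± 0.070 and 0.55 ± 0.073, adjusted p = 0.000298 and 2.32e-06, edgeR). Chek2 at 8 h fell to 22.5 ± 3.5 CPM in rescued and 40.5 ± 4.4 CPM in knockout cells, from 67.9 ± 1.5 and 77.2 ± 2.4 CPM, a difference in response of 0.69 ± 0.11 (adjusted p = 4.55e-05). Mdm4 was higher at 2 h (0.29 ± 0.061), Kat5 was lower at 8 h (-0.25 ± 0.074), and Trp53bp1, a p53-binding repair gene, was lower at 0 h (-0.19 ± 0.065, adjusted p = 0.0467). The ribosomal protein genes Rpl11 and Rpl5, whose products bind Mdm2, were higher at 0 h (0.30 ± 0.055 and 0.21 ± 0.053). Both have many processed copies in the genome, so their counts are uncertain. In all, 3 regulators were called higher and 1 lower in the difference of the 2 h response (6.6% of all genes in each direction), and 4 and 2 in that of the 8 h response (7.88% and 8.88%).

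Over the 18 libraries the members fell into patterns that are given as a description, since the libraries share their groups. Ccng1 and Trp53inp1 had r = 0.97 between their log2 CPM, Cdkn1a and Mdm2 had r = 0.74, and Trp53 and Cdkn1a had r = -0.88. Among 10768 genes with a mean of at least 5 CPM, those most like Trp53 were Zfp989 (r = 0.95), Eed (r = 0.95) and Zfp534 (r = 0.95). For Cdkn1a they were Zfp382 (r = 0.96), Nrg2 (r = 0.96) and Dgcr8 (r = 0.95), and for Mdm2 they were Begain (r = 0.96), Pithd1 (r = 0.96) and Nfkbiz (r = 0.95). Zfp989 and Zfp534 belong to a zinc finger family with near-identical copies, so their counts are uncertain.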

How the data were processed

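Nascent RNA libraries (n = 18) were grouped by the genotype and 4OHT time in their labels. The authors deposited a table of raw read counts per gene symbol, not normalized. Per the submitters' processing notes, featureCounts, STAR and DESeq were used with mm10. Their versions were not given in the sources used here, nor were the annotation and the handling of strand and introns in counting.

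Counts were filtered with filterByExpr (14128 of 25897 symbols tested), scaled by TMM and fitted with edgeR 4.0.16 in R 4.3.3 as one quasi-likelihood model of 6 group means. Benjamini-Hochberg adjustment ran over all tested genes in each of 9 contrasts, and the SE is the absolute log2 fold change divided by the root of the F statistic. The script was tested on simulated data. CPM values use TMM library sizes. A count of 0 allows up to 3 counts, or 0.196 to 0.629 CPM by library, which covers counting error only.

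The members and gene lists were chosen with earlier results of these data known. The rule for other named genes took from each list, in each comparison, up to 2 highest and 2 lowest called genes with a mean of at least 5 CPM. Trp53, Cdkn1a and Mdm2 were each set beside the 3 genes of highest correlation.

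By the labels each group has a clone A, B and C, so same-letter libraries were taken as paired. The labels do not state that a rescued and a knockout library of one letter come from one clone, so what the replicate block removes between the states is uncertain. Their deviations from group means correlated weakly (mean r = 0.015 over 45 pairs, range -0.082 to 0.073), while for 17 of the 18 libraries the best match shared the clone letter. The labels do not say that clones were derived independently, so p-values measure the spread between these libraries. No 2 replicates agreed within sampling noise. No spike-in is named, and changes are therefore relative, not absolute. Alternatives were DESeq2 1.42.0, other scalings and filters, the replicate block, other sets of libraries, and each library left out. Gene positions come from GENCODE M21 and promoters from RefSeq, both on GRCm38, the assembly behind mm10.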

Additional observations from a re-analysis of the deposited data

Results flagged for a closer look

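The difference between the response to 4OHT in knockout and in rescued cells passed edgeR's quasi-likelihood test for 6 values of the members, given as log2 fold changes. At 2 h these were Ccng1 (0.34, adjusted p = 0.0203), Sesn2 (0.35, adjusted p = 0.0222) and Trp53inp1 (0.58, adjusted p = 2e-05), each higher in knockout cells. At 8 h they were Mdm2 (-0.27, adjusted p = 0.027), Bax (-0.33, adjusted p = 0.0146) and Trp53inp1 (0.27, adjusted p = 0.0395). Of these, the 2 h value of Trp53inp1 alone kept its call with every single library left out.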

How the results depend on the processing

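For the 90 member values (10 genes in 9 comparisons), direction and side of the threshold were kept in 90 with DESeq2, 87 with RLE size factors, 87 without the 13 abundant genes, 86 without the filter, 86 with the replicate block, 85 with only the groups compared in the fit and 80 without the 3 libraries rich in abundant genes. In those settings no called value changed sign. The last of them leaves clone A as the only knockout 8 h library, so its 8 h values rest on that library. With 1 library left out, 599 of 660 values were kept, 49 lost the call, 12 gained it and 0 reversed. That moved the members called for the difference in response to between 1 and 4 at 2 h and between 1 and 4 at 8 h. The replicate block gave 5 members for the 8 h difference and changed no member's call beyond the 4 given with the genes above.

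Scaling by library size alone had the largest effect: 59 values were kept, 21 lost the call, 5 gained it and 5 reversed. The reversed values were Plk2 (-0.10) and Sesn2 (-0.045) at 2 h in knockout cells, Sesn2 (-0.00037) and Zmat3 (-0.32) at 8 h in knockout cells, and Trp53inp1 in the difference of the 8 h response (-0.022). Members called were then 3 at 8 h in rescued cells, 0 for knockout against rescued cells at 0 h and 4 at 8 h (0 higher and 4 lower), and 0 for the difference at 2 h; genes called were 420 and 1661 for knockout against rescued cells at 0 h and 2 h, and 589 for the difference at 2 h. This scaling shifted the median of all genes to -0.18 and -0.33 at 2 h in rescued and knockout cells, -0.38 at 8 h in knockout cells, -0.26 for knockout against rescued cells at 8 h and -0.13 and -0.30 for the differences in response. The share of higher among called genes moved with it, from 48.9% to 31.9% and from 47.2% to 21.2% at 2 h in rescued and knockout cells, from 48.8% to 14.7% at 8 h in knockout cells, from 45.7% to 18.4% and from 45.8% to 8.17% for knockout against rescued cells at 2 h and 8 h, and from 50% to 9.68% and from 47.0% to 6.15% for the differences. Bbc3, with as few as 113 counts in a library, had the widest errors among the members.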
